A study of Populus trichocarpa
Populus deltoides with 74 samples.

Results

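Lateral vegetative buds of 5-year-old wild-type poplar were compared with those of 1-year-old and 2-year-old wild-type poplar. These buds account for 12 of the 74 arrays of the series and for 6 of its 37 RNA isolations, chosen by the source name of each sample, with 2 isolations at each age and 2 array wells per isolation. Both Populus trichocarpa and Populus deltoides are named as the organism. The sex of these trees, the season of the buds and the number of trees behind an isolation are not stated by the sources used here. All 3 ages share the wild-type genotype and no treatment is named. May shoot tips, other than the basal ones, from wild-type trees labelled female were sampled at the same 3 ages and serve for comparison (12 arrays, 6 isolations). Total RNA was labelled with Cy5 and hybridised to an array of oligonucleotides, of which 217 have values. A gene-like name is attached to 34 of them, and the 183 others are known by clone name or accession.

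A poplar passes through several juvenile years before it forms flowers, and its buds age with it. Lateral buds of a young tree grow into shoots, while in a mature crown some of them become floral. The switch runs through floral promoters such as CONSTANS, which reads day length, and through the meristem identity genes LEAFY and APETALA1. Auxin and gibberellin shape bud outgrowth and shoot form at the same time. The gene-named oligos of the array are mostly of this kind, so they are not a neutral sample of the genome.

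Values are quantile-normalized log2 intensities averaged over the wells of an isolation. A difference is age 5 minus the equally weighted means of ages 1 and 2, given with its standard error (SE, n = 2 and 4 isolations). The tests, two-sided, were limma's moderated ones in a fit to every isolation of the series, and a call is a Benjamini-Hochberg adjusted p under 0.05 over all 217 oligos. The isolations are called biological replicates in the study's design, but whether each came from a different tree is not said, and p-values therefore measure the spread between isolations, which may be technical. An exact permutation test of 2 against 4 isolations cannot go below p = 0.0667, and none is given.

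The isolations did not repeat equally well. The median gap between isolations a and b was 0.16 at age 5, 0.44 at age 1 and 0.18 at age 2. At age 1 the gap exceeded 1 for 33 oligos, against 1 oligo at each of the other ages. Isolation a of age 1 correlated at 0.929 on average with the age 2 isolations, and isolation b of age 1 at 0.972. The labels name no plate, date or hybridisation batch. Clustering of the differences between wells, done after seeing the data, put all 6 bud isolations into 1 cluster of 10 isolations, which also held 3 isolations of June basal tips. Whether these clusters follow a batch is not known.

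In all, 66 of 217 oligos (30.4%) were called, 34 higher (15.7%) and 32 lower (14.7%) at age 5. An unadjusted p under 0.05 was reached by 86 oligos (39.6%). Both age 5 isolations lay outside the range of the 4 younger ones for 104 oligos (47.9%), above it for 62 (28.6%) and below it for 42 (19.4%). The size of the called differences had a median of 1.04 and ran up to 3.48, and 15 rises and 22 falls exceeded 1. For 65 of the 66 the direction was the same against age 1 alone and against age 2 alone, and 34 passed against each of them. Age 1 alone as the reference gave 48 calls (22.1%), 25 higher (11.5%) and 23 lower (10.6%), and age 2 alone gave 55 (25.3%), 26 higher (12%) and 29 lower (13.4%). Scaling moved the balance of directions. The deposited values gave 22 rises and 31 falls, and centring each array on its median gave 18 rises and 34 falls, with the median difference over all oligos at 0.05 and -0.04, against 0.09 after quantile normalization. The count fell to 37 when isolation a of age 5 was left out, and to 41 when isolation b was.

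**Figure D1:**
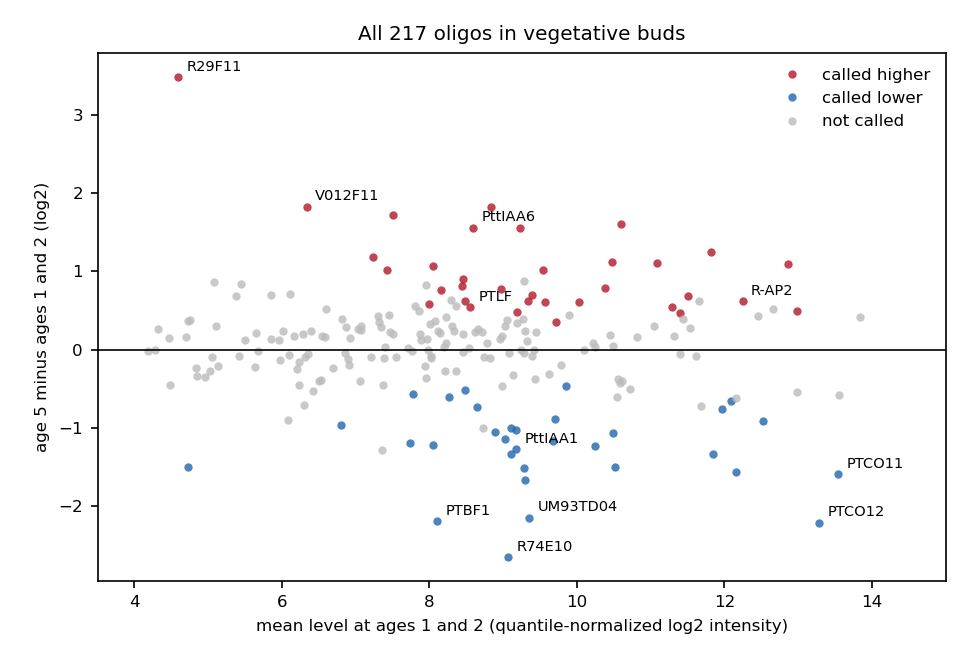
Difference between age 5 and ages 1 and 2 (log2, vertical axis) against the mean level at ages 1 and 2 (log2 intensity, horizontal axis) for all 217 oligos. The 34 called rises (red) and 32 called falls (blue) include dim and bright oligos, with R29F11 at the dim end and PTCO11 and PTCO12 at the bright end. Called oligos leaned to the bright side, with a median younger level of 9.28 for rises and 9.23 for falls, against 8.36 over all oligos.

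The CONSTANS homologs PTCO11 and PTCO12, the 2 members of the photoperiod list, both fell, beside 14.7% called lower over all oligos. CONSTANS is a zinc-finger transcription factor that promotes flowering in response to day length in Arabidopsis. PTCO12 stood at 11.12 and 11.03 in the age 5 isolations, against 13.71 and 13.42 at age 1 and 12.98 and 13.03 at age 2. Every age 5 value lay below every younger value, and the level fell by 2.21 ± 0.21, or 4.63-fold (adjusted p = 5.9e-08). PTCO11 stood at 12.02 and 11.87 at age 5, against 13.84 and 13.73 at age 1 and 13.29 at age 2 in both isolations. Its groups did not overlap either, and it fell by 1.59 ± 0.19, or 3.02-fold (adjusted p = 8.4e-07).

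Both oligos were among those with the brightest signal in younger buds, where 98.2% of oligos were dimmer than PTCO12 and 98.6% dimmer than PTCO11. In the values as deposited the differences were -1.93 ± 0.24 for PTCO12 and -1.48 ± 0.22 for PTCO11 (adjusted p = 2.3e-06 and 3.2e-05). Age 2 minus age 1 was -0.56 ± 0.24 for PTCO12 and -0.50 ± 0.22 for PTCO11, which did not pass (adjusted p = 0.247 for each). Whether an oligo also binds transcripts of its close relative was not tested.

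Among floral meristem identity genes 1 of 3 rose and 2 did not pass, a share close to the 30.4% called over all oligos. PTLF, the poplar LEAFY homolog, stood at 9.10 and 9.08 at age 5, against 8.77 and 8.32 at age 1 and 8.46 and 8.67 at age 2. Both age 5 values were above the 4 younger ones, and the rise was 0.54 ± 0.20 (adjusted p = 0.0469). This call was narrow. It did not pass against age 1 alone or age 2 alone (adjusted p = 0.102 and 0.0986), nor with the 12 arrays normalized alone. It was lost after median centring (0.47 ± 0.20, adjusted p = 0.0933), in a fit to the 6 isolations alone (adjusted p = 0.102), and when any isolation but a of age 1 was left out (adjusted p up to 0.188). The APETALA1 homologs PTAP1-1B and PTAP1-2A differed by 0.17 ± 0.52 and -0.46 ± 0.63 (adjusted p = 0.857 and 0.681). Their 95% confidence intervals, -0.91 to 1.25 and -1.78 to 0.86, leave sizable differences undetected.

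The floral organ identity genes gave 0 calls of 3 with limma, beside 30.4% called over all oligos. PTAG1 and PTAG2 are homologs of AGAMOUS, which specifies stamens and carpels, and PTD is a homolog of DEFICIENS, which acts in petals and stamens of Antirrhinum. Their differences were 0.36 ± 0.50, -0.01 ± 0.37 and -0.53 ± 0.37 (adjusted p = 0.681, 0.996 and 0.331). All 3 were dim in younger buds, where 3.23%, 11.1% and 19.8% of oligos were dimmer. The same 6 floral genes served as markers of floral tissue. Their summed level was 37.4 and 35.5 in the age 5 buds and 35.8 to 36.7 in the 4 younger isolations, and in the floral buds of age 6 it was 62.2 to 67.7. The vegetative buds of age 6, outside the comparison, stood at 45.2 and 46.4. Without PTLF the sum was 28.3 and 26.5 at age 5 and 27.4 to 28.3 in younger buds. PTAP1-2A, at 4.21 and 3.84, was among the dimmest oligos at age 5, with 0.461% of oligos dimmer, and averaged 13.79 in the floral buds of unstated sex. For ages 1, 2 and 5 the label of vegetative bud and these levels did not conflict. No oligo with a gene-like name is a textbook marker of vegetative buds.

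**Figure D2:**
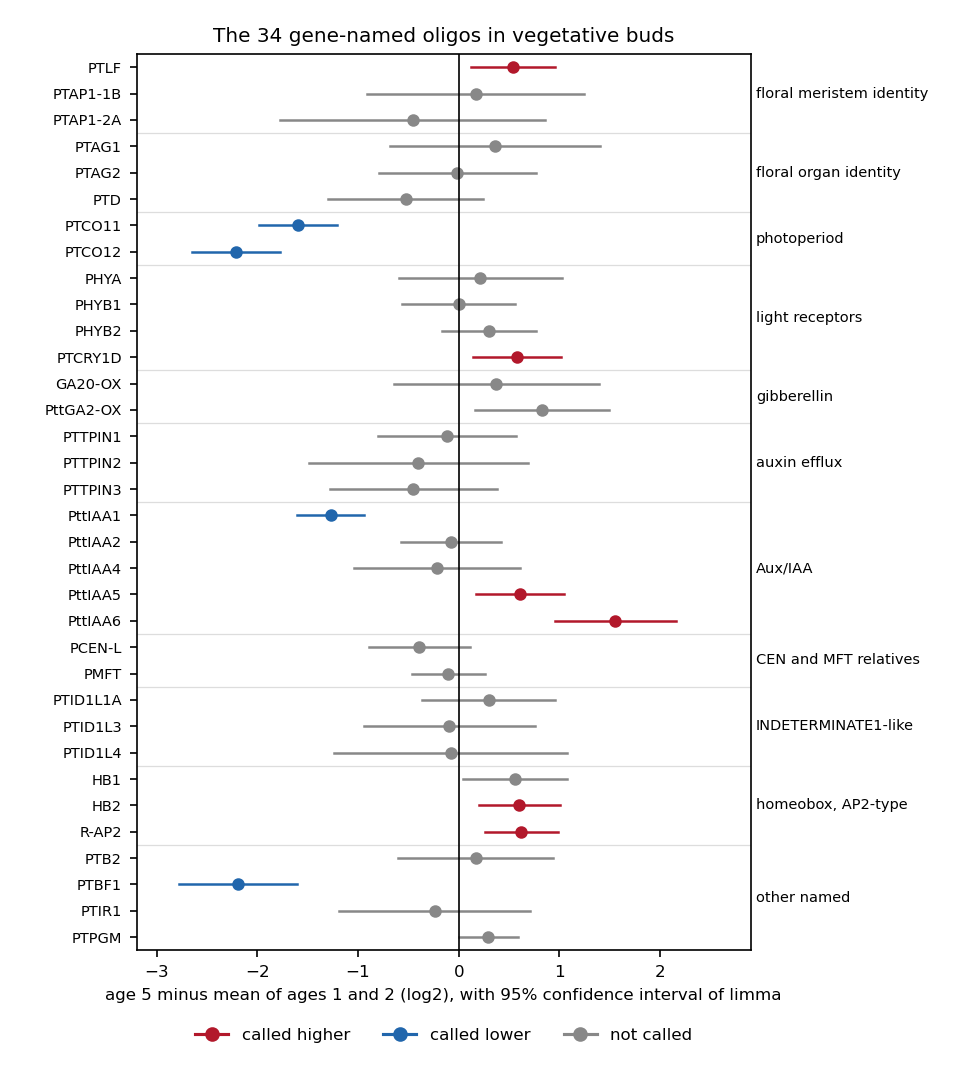
Difference between age 5 and ages 1 and 2 (log2, points) with limma's 95% confidence interval (bars) for the 34 gene-named oligos, grouped by role from top to bottom. PTCO11, PTCO12, PTBF1 and PttIAA1 lie to the left of 0 and 6 called oligos to the right, while the 24 others were not called.

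Among the auxin response genes PttIAA6 rose and PttIAA1 fell. Aux/IAA proteins are short-lived repressors of auxin-responsive transcription, and their genes are often induced by auxin themselves. Of 5 measured members 2 rose, 1 fell and 2 did not pass, beside 30.4% called over all oligos, and 1 of the rises, that of PttIAA5, was lost under other scalings. PttIAA6 stood at 10.24 and 10.06 at age 5, against 9.19 and 8.15 at age 1 and 8.25 and 8.78 at age 2. No younger isolation reached the age 5 values, and the rise was 1.56 ± 0.29, or 2.94-fold (adjusted p = 0.000238). PttIAA1 stood at 7.86 and 7.95 at age 5, against 9.74 and 9.44 at age 1 and 8.84 and 8.70 at age 2. It fell by 1.27 ± 0.16, or 2.42-fold (adjusted p = 1.9e-06), with no overlap.

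PttIAA5 stood at 10.13 and 10.20 at age 5, against 10.06 and 9.41 at age 1 and 9.38 and 9.39 at age 2. The nearest younger value, isolation a of age 1, lay just below the age 5 values, and the rise was 0.60 ± 0.21 (adjusted p = 0.0344). It was 0.38 ± 0.23 as deposited and 0.30 ± 0.26 after median centring, and neither passed (adjusted p = 0.255 and 0.497). Nor did it pass against age 1 alone (0.43 ± 0.24, adjusted p = 0.23). The call was also lost with the 12 arrays normalized alone and in a fit to the 6 isolations alone. It passed without isolation a of age 1, and not when any other isolation was left out (adjusted p up to 0.179). PttIAA2 and PttIAA4 differed by -0.08 ± 0.24 and -0.22 ± 0.40 (adjusted p = 0.854 and 0.773). The median of the 5 differences was -0.08, against 0.09 over all oligos.

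PIN proteins carry auxin out of cells, and 0 of 3 PIN genes were called by limma, beside 30.4% over all oligos. PTTPIN1, PTTPIN2 and PTTPIN3 differed by -0.11 ± 0.33, -0.40 ± 0.52 and -0.45 ± 0.40 (adjusted p = 0.849, 0.664 and 0.459). The value of PTTPIN3 rested on 1 isolation. It stood at 7.05 and 6.78 at age 5, against 9.23 and 6.75 at age 1 and 6.82 and 6.66 at age 2. Without isolation a of age 1 its difference was 0.17 ± 0.25 (adjusted p = 0.703), and without isolation b of age 1 it was -1.07 ± 0.25 (adjusted p = 0.00219).

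Neither gibberellin gene passed, beside 30.4% called over all oligos. PttGA2-OX, named for the gibberellin-inactivating 2-oxidase, stood at 8.80 and 8.76 at age 5, against 7.95 in both isolations of age 1 and 7.81 and 8.10 at age 2. The groups did not overlap, yet the difference of 0.83 ± 0.32 missed the threshold (adjusted p = 0.0525). It passed in a fit to the 6 isolations alone (adjusted p = 0.0164), with wells as separate arrays (adjusted p = 0.00679) and without the dimmest 25% of oligos (adjusted p = 0.0351). GA20-OX, named for the 20-oxidase of gibberellin synthesis, differed by 0.37 ± 0.49 (adjusted p = 0.664). It is a dim oligo, with 4.15% of oligos dimmer in younger buds.

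Of 4 light receptors 1 rose and 3 did not pass (25%), near the 30.4% called over all oligos. PTCRY1D, a cryptochrome by name and so a blue-light receptor, stood at 8.49 and 8.66 at age 5, against 8.07 and 8.11 at age 1 and 7.93 and 7.88 at age 2. The groups were apart, and the rise was 0.58 ± 0.21 (adjusted p = 0.0419). Leaving out any of the 6 isolations ended this call, with adjusted p from 0.0637 to 0.261. It was also lost with the 12 arrays normalized alone (adjusted p = 0.0772), against age 1 alone (adjusted p = 0.176) and with the cluster of well differences as a fixed term (adjusted p = 0.0546). The phytochrome genes PHYA, PHYB1 and PHYB2, which encode red-light receptors, differed by 0.21 ± 0.39, 0.00 ± 0.27 and 0.30 ± 0.22 (adjusted p = 0.773, 1 and 0.354). The wells of PHYB1 disagreed in isolation a of age 2, at 7.79 and 10.31 as deposited, and its 10 other bud wells lay between 7.28 and 8.16.

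Homeobox and AP2-type genes gave 2 rises among 3 members, beside 15.7% called higher over all oligos, and both rises were lost after median centring. R-AP2 carries the name of the APETALA2 class of transcription factors. It stood at 13.07 and 12.66 at age 5, against 12.11 and 12.65 at age 1 and 12.20 and 12.02 at age 2. The lower age 5 value and isolation b of age 1 were nearly equal, and the rise was 0.62 ± 0.17 (adjusted p = 0.00809). It was 0.37 ± 0.16 after median centring and 0.42 ± 0.22 without isolation a of age 5, and neither passed (adjusted p = 0.116 and 0.197). Nor did it pass in a fit to the 6 isolations alone (adjusted p = 0.103) or against age 1 alone (adjusted p = 0.0884).

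HB2, a homeobox gene by name, stood at 10.71 and 10.56 at age 5, against 9.35 and 9.99 at age 1 and 10.34 and 10.46 at age 2. Its rise of 0.60 ± 0.20 (adjusted p = 0.0223) lay mainly against age 1. Against age 1 alone it was 0.97 ± 0.23 (adjusted p = 0.00237), and against age 2 alone 0.24 ± 0.23 (adjusted p = 0.513). The rise did not pass with the 12 arrays normalized alone or in a fit to the 6 isolations (adjusted p = 0.0723 and 0.103). It did not pass as deposited (0.40 ± 0.18, adjusted p = 0.105), after median centring (0.32 ± 0.17, adjusted p = 0.193) or with isolation a or b of age 5, a of age 1 or a of age 2 left out (adjusted p up to 0.178). HB1 was at 8.50 and 8.23 at age 5 and between 7.77 and 7.85 in the younger isolations, and its difference of 0.56 ± 0.25 did not pass (adjusted p = 0.0973), except with wells as separate arrays (adjusted p = 0.0264).

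PTBF1, whose role the files do not give, fell as well. It stood at 6.03 and 5.79 at age 5, against 7.04 and 7.98 at age 1 and 8.69 and 8.71 at age 2. It fell by 2.20 ± 0.28 (adjusted p = 2.8e-06), with the age 5 values below all others. Only 12.4% of oligos were dimmer at age 5, and these values are not known to lie above background, so no fold is given. Its level was higher at age 2 than at age 1 by 1.18 ± 0.33, which did not pass (adjusted p = 0.0539), so the difference was -1.60 ± 0.33 against age 1 and -2.79 ± 0.33 against age 2.

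The remaining gene-named oligos did not pass. PCEN-L, a relative of CENTRORADIALIS, which keeps inflorescences indeterminate in Antirrhinum, differed by -0.39 ± 0.24, and PMFT, named for MOTHER OF FT AND TFL1, by -0.10 ± 0.17 (adjusted p = 0.25 and 0.748). PCEN-L passed only after median centring (-0.63 ± 0.22, adjusted p = 0.0426). The 3 INDETERMINATE1-like genes, named after a maize flowering regulator, lay between -0.09 and 0.30. PTB2, PTIR1 and PTPGM lay between -0.24 and 0.30. Across the 34 gene-named oligos 6 rose and 4 fell (29.4%), close to the 30.4% over the whole array.

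**Figure D3:**
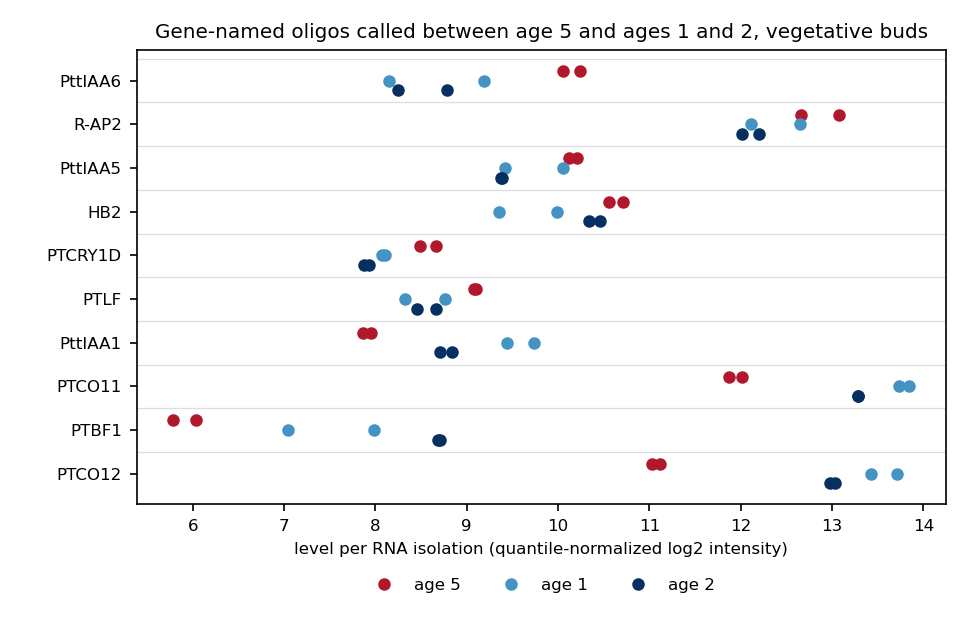
Level of each RNA isolation (log2 intensity, horizontal axis) for the 10 gene-named oligos called in vegetative buds, with age 5 in red, age 1 in light blue and age 2 in dark blue. The age 5 points of PTCO12, PTBF1, PTCO11 and PttIAA1 lie left of all younger points, and those of the 6 other oligos to the right, by a narrow margin for R-AP2, PttIAA5 and HB2.

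Among the 183 oligos known only by a clone name or accession, 28 rose and 28 fell (30.6%). The files pair none of these with a gene. R29F11 had the largest difference of all 217 oligos. It stood at 8.11 and 8.04 at age 5, against 4.51 and 4.95 at age 1 and 4.66 and 4.22 at age 2, a rise of 3.48 ± 0.36 (adjusted p = 1.9e-07). No fold is given, since the younger values are not known to lie above background. Of all oligos, 44.2% were dimmer at age 5 and 2.30% in younger buds. V012F11 stood at 8.10 and 8.22 at age 5, against 7.49 and 6.41 at age 1 and 5.71 and 5.73 at age 2. This was a rise of 1.83 ± 0.28 (adjusted p = 3.2e-05). In younger buds 18.4% of oligos were dimmer than V012F11, so no fold is given for it either.

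The largest clone falls were those of R74E10 and UM93TD04. R74E10 stood at 6.53 and 6.32 at age 5, against 11.16 and 8.56 at age 1 and 8.72 and 7.85 at age 2. It fell by 2.65 ± 0.54 (adjusted p = 0.000678), and the younger values were themselves far apart. At age 5 it was dim, with 19.8% of oligos dimmer, so no fold is given. Isolation b of age 5 rested on 1 well. Without isolation a of age 1 the difference was -2.00 ± 0.47 (adjusted p = 0.00249). UM93TD04 stood at 7.38 and 7.04 at age 5, against 10.05 and 9.23 at age 1 and 9.04 and 9.09 at age 2. It fell by 2.15 ± 0.31, or 4.43-fold (adjusted p = 1.5e-05).

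Few oligos were called between the younger ages by the same test, with 2 isolations at each age. Age 2 against age 1 gave 3 calls (1.38%), and 31 oligos (14.3%) had an unadjusted p under 0.05. The 3 differences, age 2 minus age 1, were -0.82 ± 0.18 for PttIAA1, -3.60 ± 0.37 for V063C08 and 0.86 ± 0.19 for UB18CPG04 (limma, adjusted p = 0.0148, 5.5e-07 and 0.0136). V063C08 and UB18CPG04 were chosen after their values were seen. PttIAA1 did not pass this test as deposited (adjusted p = 0.0851), after median centring (adjusted p = 0.0644), or without isolation a of age 1 or either isolation of age 2 (adjusted p up to 0.396). The count depended on age 1. Without isolation b of that age, so with isolation a alone, 34 oligos were called, and without isolation a, 1.

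V063C08 is the single called oligo whose direction differed between the younger ages. It stood at 10.83 and 10.73 at age 5, against 10.80 and 11.25 at age 1 and 7.12 and 7.72 at age 2. Its difference of 1.55 ± 0.32 (adjusted p = 0.000719) is therefore that from age 2 and not from age 1. UB18CPG04 was graded with age, with means of 8.41, 9.27 and 10.66 at ages 1, 2 and 5. Among the 66 called oligos the mean of age 2 lay between those of ages 1 and 5 for 30, and outside for 36.

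In buds of age 6, set against the same younger isolations, 45 oligos (20.7%) were called, 22 higher (10.1%) and 23 lower (10.6%). PTCO12 differed by -0.96 ± 0.21, PTCO11 by -0.78 ± 0.19, PttIAA6 by 0.35 ± 0.29 and R29F11 by 1.60 ± 0.36 (adjusted p = 0.00248, 0.004, 0.48 and 0.00278). PTBF1 differed by -1.45 ± 0.28, PttIAA1 by -1.12 ± 0.16 and PTLF by 0.94 ± 0.20 (adjusted p = 0.000954, 2.1e-05 and 0.00209). R-AP2, HB2, PTCRY1D and PttIAA5, at 0.39, -0.09, 0.25 and 0.25, did not pass (adjusted p = 0.121, 0.792, 0.48 and 0.48). V012F11, at 1.32 ± 0.28, passed (adjusted p = 0.00208). R74E10 and UM93TD04, at -1.18 and -0.86, did not (adjusted p = 0.141 and 0.0528). PTAP1-2A averaged 9.31 at age 6 and 4.03 at age 5. The younger isolations are shared by both comparisons, and by the differences between wells the age 6 isolations fell into different clusters, 1 of them apart from the buds described here.

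The same ages in May shoot tips were used to ask where the age difference of buds departs from that of another organ. The organs share no sample, and their isolations fell into different clusters of well differences. The tips are labelled female and the sex of the bud trees is unstated. In May tips 53 oligos (24.4%) were called between age 5 and ages 1 and 2. Of these, 13 were also called in buds in the same direction, which is 19.7% of the bud calls and 24.5% of the tip calls. In opposite directions 12 were called, 18.2% of the bud calls and 22.6% of the tip calls. The test of the difference between organs called 55 oligos (25.3%), 30 with a higher (13.8%) and 25 with a lower (11.5%) difference in buds. Deposited values gave 15 higher and 23 lower, and median centring gave 16 and 23. The median of this difference over all oligos was 0.18 after quantile normalization, 0.04 as deposited and 0.07 after centring. Leaving out isolation a of the age 5 buds left 35 calls.

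PTCO12 fell further in buds than in tips, where its difference was -0.73 ± 0.21, and the difference between organs was -1.48 ± 0.30 (limma, adjusted p = 0.000659). In tips it stood at 12.02 and 11.93 at age 5, against 13.57 and 13.43 at age 1 and 11.55 and 12.28 at age 2. There the age 5 values lay within the range of age 2, whereas in buds they lay below both younger ages. PTCO11 in tips stood at 12.44 and 12.72 at age 5 and at 12.48 and 12.99 at age 2, which overlapped. Both its age 1 isolations stood at 13.98 in tips. For PTCO11 the difference was -0.78 ± 0.19 in tips and -0.82 ± 0.27 between organs (adjusted p = 0.0277), which did not pass as deposited or after median centring (adjusted p = 0.0926 and 0.113) or with isolation a or b of the age 5 buds, b of the age 5 tips or a of the age 2 tips left out (adjusted p up to 0.132).

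R-AP2 had differences of opposite sign, higher at age 5 in buds and at -0.63 ± 0.17 in tips (adjusted p = 0.0122). The difference between organs was 1.25 ± 0.24 (adjusted p = 0.000495). In tips it stood at 11.74 and 11.77 at age 5, against 12.60 and 13.06 at age 1 and 11.74 and 12.14 at age 2. Its difference in tips thus lay mainly against age 1. PttIAA6 differed between organs by 1.91 ± 0.41, PttIAA1 by -1.02 ± 0.22 and PTBF1 by -1.67 ± 0.40 (adjusted p = 0.00112, 0.00147 and 0.00315), and in tips alone these 3 genes did not pass. For PTLF the difference between organs was 0.93 ± 0.28 (adjusted p = 0.0195), at 8.12 and 7.98 in tips of age 5, against 8.84 and 8.53 at age 1 and 8.34 and 8.07 at age 2. It did not pass without isolation a or b of the age 5 buds or isolation b of the age 5 tips (adjusted p up to 0.0738). PTPGM differed between organs by 0.71 ± 0.20 (adjusted p = 0.01), but by 0.39 in the values as deposited (adjusted p = 0.189) and 0.42 after median centring (adjusted p = 0.172). It did not pass without isolation a of the age 5 buds or b of the age 5 tips either (adjusted p = 0.0553 and 0.0738).

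**Figure D4:**
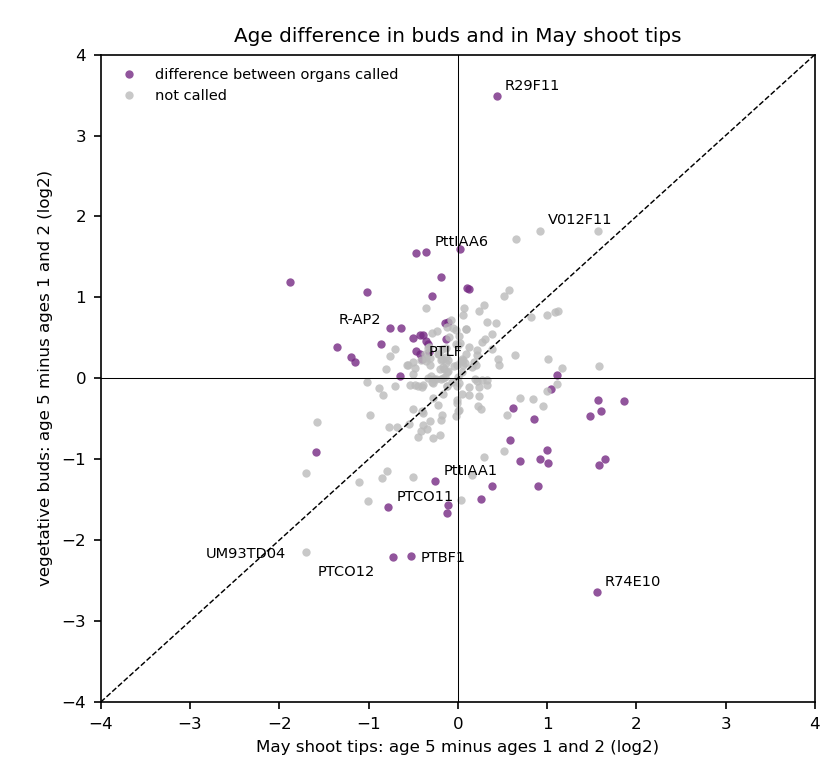
Difference between age 5 and ages 1 and 2 (log2) in vegetative buds (vertical axis) against May shoot tips (horizontal axis) for 217 oligos, with equality on the dashed line. The 55 oligos whose difference between organs was called are purple, among them R29F11 above the line and R74E10, PTCO12 and PTBF1 below it.

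Of the clone oligos, R29F11 stood at 6.20 and 6.04 in tips of age 5 and between 5.09 and 6.32 in younger tips, and the difference between organs was 3.05 ± 0.51 (adjusted p = 0.000134). R74E10 had a difference of 1.56 ± 0.54 in tips (adjusted p = 0.0406), opposite in sign to buds. The difference between organs was -4.20 ± 0.77 (adjusted p = 0.000299). In tips it stood at 12.56 and 11.23 at age 5, against 9.13 and 8.95 at age 1 and 12.18 and 11.09 at age 2. There ages 5 and 2 overlapped, and the difference lay against age 1. In tips UM93TD04 differed by -1.70 ± 0.31 (adjusted p = 0.00039) and V012F11 by 0.92 ± 0.28 (adjusted p = 0.0211), the same signs as in buds. The tip mean of V012F11 at age 5, 8.72, lay above that of age 1, 6.68, but below that of age 2, 8.93. In buds its age 5 values lay above both younger ages. For UM93TD04 and V012F11 the difference between organs did not pass (adjusted p = 0.52 and 0.0974).

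**Figure D5:**
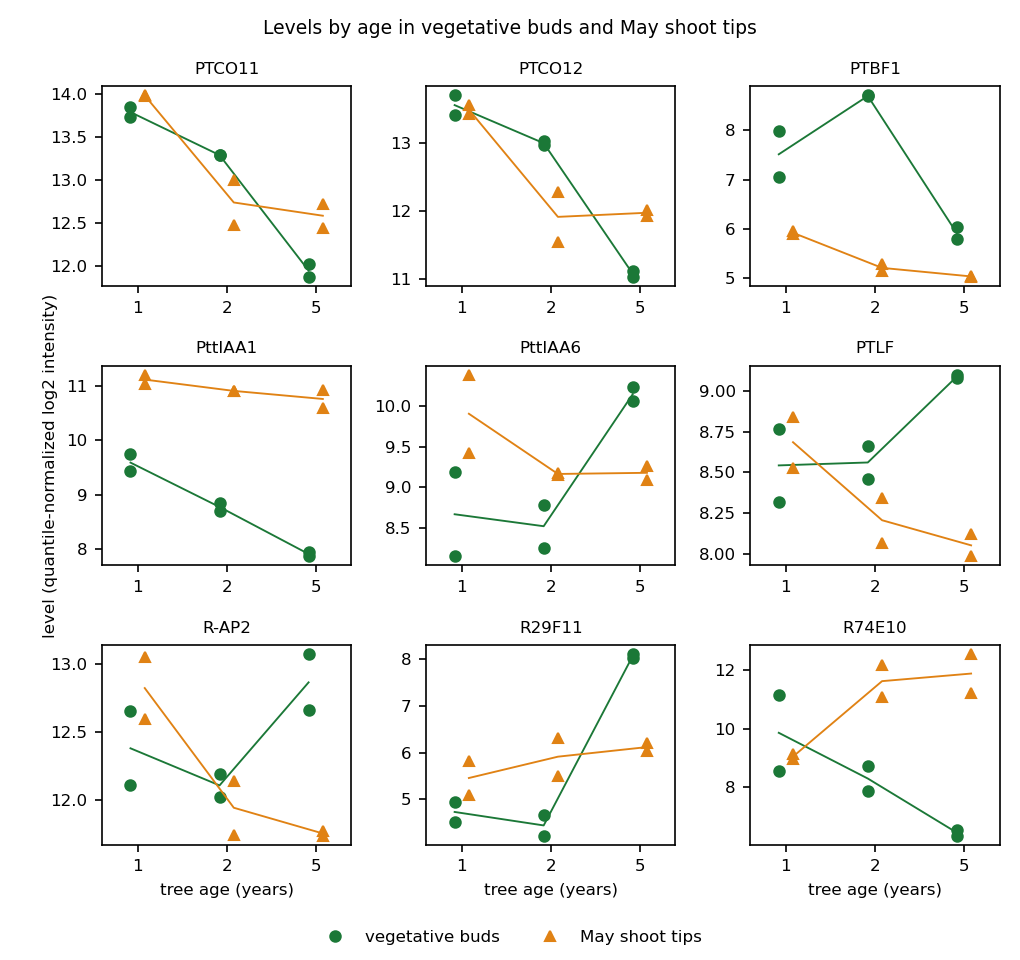
Level of each isolation (log2 intensity) at ages 1, 2 and 5, drawn evenly spaced, in vegetative buds (green circles) and May shoot tips (orange triangles) for 9 oligos, with lines through the means. Bud values of PTCO12 fell to 11.12 and 11.03 at age 5, below its tip values of 12.02 and 11.93, and R29F11 reached 8.11 and 8.04 in buds of age 5, above all its other values.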

How the data were processed

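The series holds 74 single-colour Cy5 arrays from 37 RNA isolations in 19 groups. The authors deposited 1 value per oligo and array, read here as a log2 intensity from its range of 1.1 to 16.25. The log base, scanner, background correction, normalization and handling of the spots printed in duplicate are not stated by the sources used here, so signal over background is unknown and fold values rest on this reading. The 12 arrays of the buds gave 210 to 217 values, with medians of 8.19 to 8.52. Missing values stayed missing. Wells of an isolation were averaged over those with a value, and 3 oligos named here lacked 1 of 12 wells.

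All arrays were quantile-normalized, and limma 3.58.1, run in R 4.3.3, estimated a mean per group from all 37 isolations (18 residual degrees of freedom). The script was tested on simulated data. All gene-named oligos were described, with the 2 largest clone rises and falls that shared a sign against both younger ages. Members and gene lists were chosen with earlier results of these data known. Alternatives were other scalings, fits, references and filters, the isolation letter as a replicate block and each isolation left out. Differences between wells were clustered into 5 sets of isolations, which no label names, and the set as a fixed term was added after seeing the data. The number of oligos and isolations limits precision. Of the oligo names 0 matched the RefSeq gene table, so no position or sequence is given. Printed control oligos could not be told apart by name. Same-lettered isolations of the 3 ages did not deviate together (r of 0.09, 0.08 and -0.03), so letters were not treated as pairs.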

Additional observations from a re-analysis of the deposited data

Results flagged for a closer look

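The age difference (age 5 against ages 1 and 2) of 10 of the 38 described oligos differed between vegetative buds and May shoot tips by the test of that difference in limma, a share close to the 25.3% over all 217 oligos. R29F11 and R74E10 were described for their large difference in buds. As buds minus tips on the log2 scale the values were 3.05 for R29F11, 1.91 for PttIAA6, 1.25 for R-AP2, 0.93 for PTLF and 0.71 for PTPGM, and -4.20 for R74E10, -1.67 for PTBF1, -1.48 for PTCO12, -1.02 for PttIAA1 and -0.82 for PTCO11. The tips are labelled female and the sex of the bud trees is unstated, and the isolations compared fell into different clusters of well differences by organ. The part of sex and cluster in these values was not tested. Of the 10, 7 passed under all 15 alternatives tried (12 isolations left out in turn, both other scalings and the replicate block), and PTCO11, PTLF and PTPGM did not.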

How the results depend on the processing

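For age 5 against ages 1 and 2 in buds, 5 of the 10 called gene-named oligos (PTCO11, PTCO12, PTBF1, PttIAA1 and PttIAA6) and all 4 clone oligos passed in the same direction under every alternative that gave them a value. HB2, PTCRY1D, PTLF, PttIAA5 and R-AP2 lost the call under at least 1, and 0 of these 14 changed direction. The 4 clone oligos were chosen for large called differences with the same sign against age 1 and age 2. Their passing and their constant direction were favoured by that choice and are not separate support. Without the dimmest 25% of oligos, 15 of the 38 named oligos have no value, PTBF1 and R29F11 among them. The count of 66 was 42 at an adjusted p under 0.01 and 37 to 64 with 1 isolation left out, where the age left with 1 isolation is assumed to vary like the others. Under the other alternatives it was 48 to 77. With the isolation letter as a replicate block it was 66, of which 65 were shared with the fit without it. A term for the cluster of well differences, chosen after seeing the data, gave 66, of which 64 were shared. All 6 bud isolations lay in the same cluster, and each age had both letters. Neither term could therefore change an age difference in buds, only its standard error, so these 2 counts do not test for a batch. For age 2 against age 1 the count of 3 became 1 after median centring and 6 with the replicate block, and ran from 1 to 34 with 1 isolation left out. The difference between organs kept 35 to 60 calls with 1 isolation left out, 35 of them without isolation a of the age 5 buds.

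Signs were followed for the 38 described oligos, and those that changed were among the 24 uncalled ones. Of the other called oligos V063C08 turned against age 1 alone. As deposited and with the 12 arrays normalized alone, PHYB1 was at 0.022 and 0.039 and PTAG2 at 0.054 and 0.020. Against age 1 alone PHYB1 was at 0.41, PTID1L4 at 0.021 and PttIAA2 at 0.047. Against age 2 alone the values were -0.037 for GA20-OX, 0.23 for PTAG2, -0.23 for PTAP1-1B, -0.0048 for PTID1L1A, 0.13 for PttIAA4, 0.083 for PTTPIN1 and 0.18 for PTTPIN3. With 1 isolation left out the ranges were -0.072 to 0.82 for GA20-OX, -0.11 to 0.54 for PHYA, -0.42 to 0.42 for PHYB1, -0.27 to 0.064 for PMFT, -0.17 to 0.14 for PTAG2, -0.40 to 0.73 for PTAP1-1B, -0.024 to 0.62 for PTID1L1A, -0.33 to 0.15 for PTID1L3, -0.35 to 0.19 for PTID1L4, -0.20 to 0.038 for PttIAA2, -0.44 to 0.0023 for PttIAA4, -0.27 to 0.041 for PTTPIN1 and -1.07 to 0.17 for PTTPIN3. The cause of these shifts was not tested.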

Other observations

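The isolations of age 1 stood apart in single genes more than those of the other ages. The gap between isolations a and b exceeded 1 for 6 of the 34 gene-named oligos, beside 33 of all 217. PTTPIN3, an auxin efflux carrier gene, was at 9.23 and 6.75, and PTAP1-1B, an APETALA1 homolog, at 5.01 and 7.27. PHYA was at 5.17 and 6.46, and the INDETERMINATE1-like genes PTID1L1A and PTID1L4 at 7.36 and 8.66 and at 8.75 and 9.83. PttIAA6 was at 9.19 and 8.15.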
